A study of Homo sapiens with 24 samples.

Results

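Genes of the collagen, hyaluronan and stromal matrix were followed by RNA sequencing in 3 human triple-negative breast cancer cell lines (MDA-MB-157, MDA-MB-231, MDA-MB-468) after 3 h with compounds against BET proteins. The members were 10 genes listed by symbol (COL1A1, COL1A2, COL3A1, COL5A1, COL6A1, FN1, SPARC, LUM, FAP and HAS2), and 9 of them were among the 14114 genes of the deposited table. COL1A2 was not analysed here. BET proteins are bromodomain proteins that bind acetylated chromatin and help genes to be transcribed. Cells of each line had received BETd-246, a BET degrader, at 100 nM, BETi-211, a BET inhibitor, at 1000 nM, thalidomide at 1000 nM or DMSO at 0.05% by volume. Each of the 12 groups held 2 libraries, 24 in all, described by the submitters as independent biological replicates. The 4 thalidomide and DMSO libraries of a line are together called its controls, because the design text names both as such. All lines are labelled as basal, negative for ERα and PR and without HER2 overexpression, and each group is a culture of 1 cell line without stromal cells of a tumour.

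The extracellular matrix is the protein and polysaccharide network around cells. Fibrillar collagens are secreted as trimers and assemble into fibres, fibronectin links that network to integrins on the cell surface, and small proteoglycans and matricellular proteins shape how fibres form. Hyaluronan, a long unbranched polysaccharide, is made at the plasma membrane by hyaluronan synthases and is broken down by hyaluronidases. Most of these genes are known for high expression in fibroblasts, and carcinoma cells that have taken on mesenchymal features can express them too.

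HAS2, which encodes a hyaluronan synthase, fell with both compounds in the lines that expressed it. Its mean level was 3.02-fold lower with BETd-246 and 4.99-fold lower with BETi-211 than in the controls of MDA-MB-157, and 4.16-fold and 19.7-fold lower in the same order in MDA-MB-231. In MDA-MB-157, where all 9 were expressed above 1 FPKM, 7 of the other 8 were called slightly higher with BETd-246, by at most 1.27-fold, beside 19% of all genes called higher. Those calls depended in part on the scale: COL3A1, FN1 and SPARC were not called with quantile normalization, and FN1, SPARC, LUM and FAP were not called with a pseudocount of 0.1. Among members below 1 FPKM, COL1A1 with BETd-246 and SPARC with BETi-211 were also called lower in MDA-MB-231. In MDA-MB-468 most members were near 0 and no BETd-246 change was called, while COL1A1, FN1 and FAP were called higher there with quantile normalization or median-of-ratios scaling.

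Values were taken as FPKM, fragment counts scaled by transcript length and by the library's mapped fragments, a unit inferred from the values. Sums over the 14114 genes were 454289 to 534179 FPKM per library, and log2 values of the 2 libraries of a group correlated across genes at 0.992 to 0.998. Fragment counts and depth were not given, so no counting interval can be set on a low value. The share of the sum from mitochondrial genes was 9.55% to 15.1% with BETd-246, 8.44% to 14.3% with BETi-211 and 7.18% to 13.99% in controls over the 3 lines. FPKM sums were higher, and the median FPKM over all genes was lower, with both compounds than in controls in each line. The part of these shifts in the results was not tested as such. Differences are on the log2(FPKM + 1) scale with their standard error (SE). They were tested with limma, two-sided, and counted as called where the p adjusted by Benjamini-Hochberg over the 14114 genes was below 0.05. This scale understates changes of genes at low levels.

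Promoter entries of RefSeq (GRCh38.p14) were found for 3 of the 9 members, FN1, COL5A1 and SPARC. The windows of FN1 and COL5A1 are shown, with 146 and 221 bases before the first GENCODE start of the gene. SPARC has 0 such bases in its entry, so no window is shown for it. Each sequence is cut to the bases before the first GENCODE start of the gene and runs 5′ to 3′ on the strand of the gene. The COL5A1 window is chr9:134641553-134641773 on the plus strand and the FN1 window is chr2:215436173-215436318 on the minus strand. Capitals mark matches to TGACGTCA, a cyclic AMP response element, and to CCAAT.
FN1: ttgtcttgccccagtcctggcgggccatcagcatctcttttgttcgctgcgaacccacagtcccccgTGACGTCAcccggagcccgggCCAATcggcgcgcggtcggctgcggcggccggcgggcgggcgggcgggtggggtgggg
COL5A1: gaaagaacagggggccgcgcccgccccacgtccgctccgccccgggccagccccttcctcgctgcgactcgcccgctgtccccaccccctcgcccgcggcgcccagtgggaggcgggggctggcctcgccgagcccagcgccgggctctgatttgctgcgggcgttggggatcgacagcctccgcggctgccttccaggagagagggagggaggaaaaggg
Counted from the RefSeq start of FN1, TGACGTCA covers bases -183 to -176 and CCAAT bases -162 to -158. No letters of these motifs or of TATAAA, searched on both strands, are in the COL5A1 window. Over 35116 RefSeq windows of 250 bases before a start, 1.65% held TGACGTCA, 32.0% held CCAAT and 10.7% held TATAAA. A match describes the letters and does not show a bound site.

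The control levels differed between the lines. MDA-MB-157 expressed all 9 members, MDA-MB-231 expressed 4 above 1 FPKM, and MDA-MB-468 expressed 3 above 1 FPKM, none of them above 4 FPKM. Levels are means of the 4 control libraries ± SD. Since the lines also differ in origin, the differences below describe these lines only.

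Among the fibrillar collagens, COL3A1, whose chain forms type III collagen, averaged 354 ± 13.95 FPKM in MDA-MB-157 controls and ranked 141st of 14114 genes there. In both other lines each of its 8 libraries was below 0.05 FPKM. COL1A1, the alpha 1 chain of type I collagen, averaged 24.3 ± 2.13 FPKM in MDA-MB-157, 0.578 ± 0.0433 FPKM in MDA-MB-231 and 1.34 ± 0.150 FPKM in MDA-MB-468. COL5A1, a chain of type V collagen, which helps to start type I fibrils, averaged 71.4 ± 6.48 FPKM in MDA-MB-157 and 17.1 ± 1.29 FPKM in MDA-MB-231, and 0.0210 FPKM in MDA-MB-468. COL6A1, a chain of the microfibril-forming type VI collagen, averaged 203 ± 19.9 FPKM in MDA-MB-157 and 10.3 ± 0.567 FPKM in MDA-MB-231, and was at most 0.0283 FPKM in the MDA-MB-468 controls.

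SPARC, a collagen-binding matricellular protein, was the highest member and the 27th gene of the table in MDA-MB-157 controls, at 1050 ± 14.4 FPKM. In both other lines it was below 0.3 FPKM in every control library. LUM, the small leucine-rich proteoglycan lumican, averaged 55.3 ± 2.09 FPKM in MDA-MB-157 and 0.134 ± 0.0149 FPKM in MDA-MB-231, and is listed at 0 in all 8 MDA-MB-468 libraries. FN1, fibronectin, averaged 228 ± 5.62 FPKM in MDA-MB-157, 52.4 ± 3.80 FPKM in MDA-MB-231 and 3.13 ± 0.257 FPKM in MDA-MB-468, and was the highest member in both of the last lines. FAP, a surface serine protease of activated fibroblasts, averaged 7.96 ± 0.821 FPKM in MDA-MB-157, 0.0163 FPKM in MDA-MB-231 and 2.45 ± 0.138 FPKM in MDA-MB-468.

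HAS2 had another order. It averaged 5.86 ± 1.10 FPKM in MDA-MB-157 controls, with libraries from 4.79 to 7.01. In MDA-MB-231 controls HAS2 averaged 7.10 ± 0.753 FPKM, with libraries from 6.38 to 7.79. These ranges overlapped, but libraries of the same control treatment did not overlap between these lines. In MDA-MB-468 HAS2 is listed at 0 in 7 of 8 libraries and at 0.00382 FPKM in 1 DMSO library. Within MDA-MB-157 the order of levels was SPARC, COL3A1, FN1, COL6A1, COL5A1, LUM, COL1A1, FAP and HAS2. Neighbouring ranges overlapped between FN1 and COL6A1 only (220 to 233 and 175 to 222 FPKM), while FAP (7.24 to 8.72) lay just above HAS2. In MDA-MB-231 the order was FN1, COL5A1, COL6A1 and HAS2, with no overlap between neighbours.

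Between control lines, all 9 members were called higher in MDA-MB-157 than in MDA-MB-468, where 46% of all genes were called higher and 88% were called either way. Against MDA-MB-231, 8 members were higher and HAS2 was lower in MDA-MB-157, beside 50.1% higher, 37.2% lower and 87.4% called of all genes. The log2 difference of MDA-MB-157 minus MDA-MB-231 was 9.72 for SPARC, 8.46 for COL3A1 and 5.63 for LUM, and it was 2.10 ± 0.06 (SE) for FN1, 1.997 ± 0.04 for COL5A1 and -0.25 ± 0.03 for HAS2. Every gene of the table reaches 1.22 FPKM or more in its highest group mean. SPARC, COL3A1 and LUM were below 1 FPKM in all libraries of both other lines and reach that level in MDA-MB-157 alone. Being in the table thus fixed their direction, and their calls are no separate support for it. The HAS2 difference was called (limma adjusted p = 3.91e-06), and the control libraries of these lines overlapped only across treatments. DMSO libraries had 6.57 and 7.01 FPKM in MDA-MB-157 and 7.79 and 7.71 FPKM in MDA-MB-231. Thalidomide libraries had 4.79 and 5.06 FPKM against 6.38 and 6.53 FPKM in the same order. Between MDA-MB-231 and MDA-MB-468, 8 members were called, 6 higher and 2 lower in MDA-MB-231, beside 86.2% of all genes called, 38.4% higher and 47.8% lower. The lower ones were COL1A1 (-0.57) and FAP (-1.76), and COL3A1 was not called. The median log2 difference of the members was 4 for MDA-MB-157 minus MDA-MB-231 and 5.82 for MDA-MB-157 minus MDA-MB-468, against 0.13 and 0.04 over all genes. Both medians, and the counts of members higher in MDA-MB-157, include SPARC, COL3A1 and LUM, whose direction was fixed. The median of 5.82 is the value of LUM itself.

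**Figure D1:**
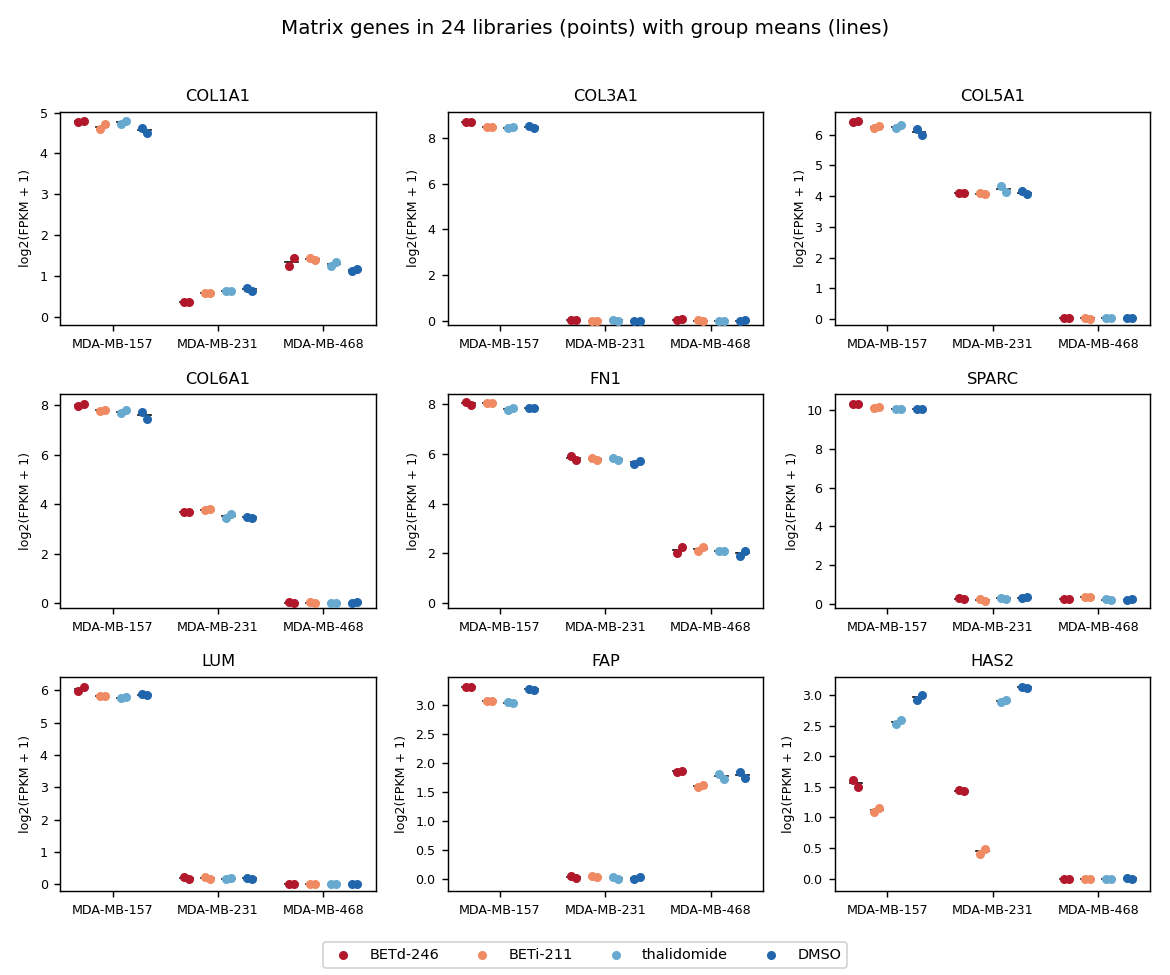
Level of each of the 9 matrix genes, as log2(FPKM + 1), in every library (points, coloured by treatment) and the mean of each group of 2 (black lines), with the lines on the x axis. All genes are expressed in MDA-MB-157, SPARC, COL3A1 and LUM are near 0 in both other lines, and HAS2 alone separates clearly by compound.

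Defining markers were checked against the labels. The fibroblast and pericyte list summed to 717 to 765.7 FPKM in MDA-MB-157 controls, 255.1 to 300.9 FPKM in MDA-MB-231 controls and 134.9 to 144.5 FPKM in MDA-MB-468 controls, over 10 measured markers of 15, and it includes 4 matrix members. Of markers outside the matrix members, PDGFRB averaged 51.1 and ACTA2 148.6 FPKM in MDA-MB-157, at most 1.37 FPKM in the controls of the other lines. Not all stromal markers followed that order. S100A4 averaged 60.0 FPKM in MDA-MB-157, 252.5 FPKM in MDA-MB-231 and 111.7 FPKM in MDA-MB-468 controls. TAGLN, an actin-binding protein of smooth muscle, averaged 21.6, 22.2 and 23.9 FPKM in the same order, and CSPG4, a cell-surface proteoglycan, 0.666, 2.59 and 0.0392 FPKM. The keratins KRT8 and KRT18 were present in all 3 lines, at 165 and 302.5 FPKM in MDA-MB-157. CDH1, epithelial cadherin, was 0.406 FPKM in MDA-MB-157, 0.177 FPKM in MDA-MB-231 and 37.9 FPKM in MDA-MB-468, and EPCAM was 1.75, 3.52 and 152 FPKM in that order. VIM, vimentin, was 1996, 891 and 12.3 FPKM in the same order. The basal keratin KRT5 was below 1 FPKM in MDA-MB-157 and MDA-MB-231 and averaged 751.9 FPKM in MDA-MB-468. Lists of other cell types were also highest in MDA-MB-157 controls. The immune list (2 measured markers of 8) summed to 53.98 to 63.64 FPKM there and at most 1.504 FPKM in the other lines. The endothelial list (3 of 7) summed to 15.27 to 17.74 FPKM there, 1.268 to 1.58 FPKM in MDA-MB-231 and 3.877 to 4.964 FPKM in MDA-MB-468. Fewer expressing cells and less RNA per cell cannot be told apart in these bulk libraries.

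HAS2 in MDA-MB-231 had 1.73 and 1.68 FPKM with BETd-246, 0.326 and 0.397 FPKM with BETi-211, 6.38 and 6.53 FPKM with thalidomide and 7.79 and 7.71 FPKM with DMSO. Both compounds' libraries lay below all 4 controls, and the groups did not overlap. The log2 change against controls was -1.58 ± 0.04 (SE) for BETd-246 (limma adjusted p = 4.23e-14) and -2.57 ± 0.04 for BETi-211 (adjusted p = 1.54e-15). The BETi-211 fall was the largest of the 14114 genes in that comparison, and the BETd-246 fall ranked 153rd.

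HAS2 in MDA-MB-157 had 2.05 and 1.83 FPKM with BETd-246, 1.13 and 1.22 FPKM with BETi-211, 4.79 and 5.06 FPKM with thalidomide and 6.57 and 7.01 FPKM with DMSO. The order of the 4 treatments was thus the same as in MDA-MB-231, again without overlap. The change was -1.21 ± 0.04 for BETd-246 (limma adjusted p = 8.97e-13) and -1.64 ± 0.04 for BETi-211 (adjusted p = 1.61e-13), the 358th and the 7th largest falls of the 14114 genes. These 4 falls were called under every alternative setting and with each library left out.

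The falls differed between the lines. The BETi-211 effect on HAS2 in MDA-MB-157 minus that in MDA-MB-231 was 0.93 ± 0.06 (limma adjusted p = 1.9e-08), that is, a smaller fall in MDA-MB-157, and for BETd-246 it was 0.37 ± 0.06 (adjusted p = 0.000586). The BETd-246 difference did not pass after quantile normalization (0.12, adjusted p = 0.255). In MDA-MB-468 HAS2 was at 0 in all libraries of both compounds and no fold is given.

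**Figure D2:**
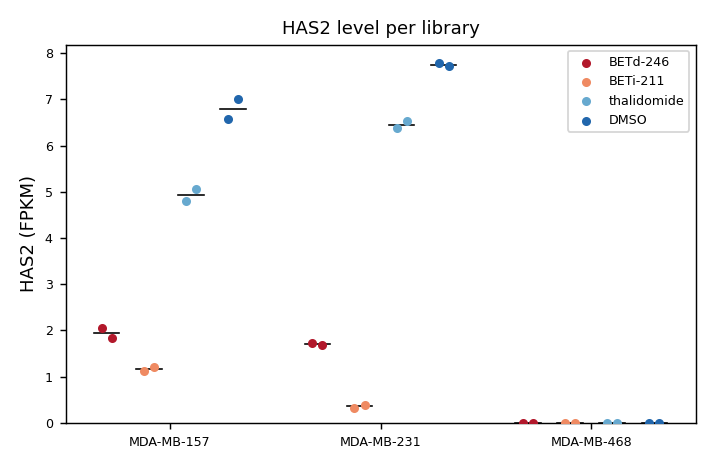
HAS2 level in FPKM in every library (points) with group means (black lines), for each line and, from left to right, BETd-246, BETi-211, thalidomide and DMSO. In MDA-MB-231 the BETi-211 libraries are at 0.326 and 0.397 FPKM and the DMSO libraries at 7.79 and 7.71 FPKM, and MDA-MB-468 is at or near 0 throughout.

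Set beside each other, with 100 nM of BETd-246 against 1000 nM of BETi-211, HAS2 was higher with BETd-246 in both expressing lines. The log2 difference was 0.99 ± 0.05 in MDA-MB-231 (limma adjusted p = 7.33e-11) and 0.43 ± 0.05 in MDA-MB-157 (adjusted p = 2.18e-06), and the ratios of mean FPKM were 4.72 and 1.65. Because the doses differ, these values do not rank the compounds.

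Thalidomide itself also went with less HAS2. In MDA-MB-157 the log2 difference of thalidomide minus DMSO was -0.39 ± 0.05 (limma adjusted p = 0.0047), with 4.79 and 5.06 FPKM against 6.57 and 7.01 FPKM. HAS2 was the 1 member called there, beside 0.184% of all genes (26 genes), and 5 of 9 members had an unadjusted p below 0.05 beside 14.8% of all genes. Without DMSO replicate 1 the count was 4. The HAS2 call was lost with a pseudocount of 0.1 (adjusted p = 0.0794), with the line fitted alone (0.199) and without DMSO replicate 2 (0.151), thalidomide replicate 1 (0.0794) or thalidomide replicate 2 (0.0665). In MDA-MB-231 the difference was -0.23 ± 0.05 and was not called (adjusted p = 0.459), and limma called 0 genes, members included, either there or in MDA-MB-468 (0% of all genes). In each of these lines 1 member had an unadjusted p below 0.05, beside 5.43% of all genes in MDA-MB-231 and 14% of them in MDA-MB-468. In MDA-MB-231, 2 members were called when thalidomide replicate 2 was left out.

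The collagens, fibronectin and the other matrix genes followed another course. In MDA-MB-157 with BETd-246, 8 of 9 members were called, 7 higher and HAS2 lower, beside 51.5% of all genes, 19% higher and 32.4% lower. The median change of the members was 0.22, against -0.03 over all genes. Other members' rises were small: 0.34 ± 0.06 (SE) for COL6A1, 0.24 ± 0.03 for SPARC, 0.24 ± 0.05 for COL5A1, 0.23 ± 0.03 for COL3A1, 0.22 ± 0.04 for LUM, 0.20 ± 0.07 for FN1 and 0.16 ± 0.04 for FAP. COL1A1 did not pass (0.13 ± 0.05, limma adjusted p = 0.0522). COL1A1 was called higher with quantile normalization (0.21), with median-of-ratios scaling (0.28) and with DMSO alone as control (0.23). The FN1 call was lost with DMSO alone (0.19, limma adjusted p = 0.0806) and with thalidomide alone as control (0.22, adjusted p = 0.0501). The line between the called rises and COL1A1 is thus not sharp.

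COL6A1 in MDA-MB-157 had 252 and 263 FPKM with BETd-246, 218 and 225 FPKM with BETi-211, 206 and 222 FPKM with thalidomide and 210 and 175 FPKM with DMSO. The BETd-246 libraries lay above all others. COL3A1 had 412 and 421 FPKM with BETd-246, 357 and 357 FPKM with BETi-211, 342 and 357 FPKM with thalidomide and 372 and 345 FPKM with DMSO, and again the BETd-246 libraries were highest. SPARC had 1238 and 1246 FPKM with BETd-246, 1094 and 1109 FPKM with BETi-211, 1051 and 1051 FPKM with thalidomide and 1067 and 1032 FPKM with DMSO, with no overlap between BETd-246 and the rest.

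COL5A1 had 83.4 and 85.2 FPKM with BETd-246 and 62.5 to 78.0 FPKM in the controls, and LUM had 61.4 and 67.7 FPKM with BETd-246 and 53.2 to 57.8 FPKM in the controls. FN1 had 272 and 254 FPKM with BETd-246, 262 and 263 FPKM with BETi-211, 220 and 231 FPKM with thalidomide and 228 and 233 FPKM with DMSO, so both compounds' libraries lay above the controls. FAP had 8.97 and 8.93 FPKM with BETd-246, 7.44 and 7.44 FPKM with BETi-211, 7.26 and 7.24 FPKM with thalidomide and 8.72 and 8.62 FPKM with DMSO, so its BETd-246 level was close to that of DMSO. Against DMSO alone the FAP change was 0.04 and was not called (adjusted p = 0.481).

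These rises depended on the scaling. Over the alternatives the median change of all genes in this comparison lay between -0.10 with column-total scaling and 0.09 with median-of-ratios scaling. With column-total scaling 6 members were called, and FN1 (0.11, adjusted p = 0.292) and FAP (0.07, adjusted p = 0.153) did not pass. With quantile normalization 6 were called and SPARC (0.00, adjusted p = 0.944), COL3A1 (0.07, adjusted p = 0.094) and FN1 (0.07, adjusted p = 0.473) did not pass. With a pseudocount of 0.1, 4 were called. COL6A1, COL5A1 and HAS2 were called under these 3 settings. The fibroblast and pericyte list summed to 850.8 to 874 FPKM with BETd-246 and 717 to 765.7 FPKM in controls of MDA-MB-157, and the epithelial list to 552.8 to 564.4 FPKM and 483.5 to 508 FPKM in the same order. The fibroblast and pericyte list holds the members COL1A1, COL3A1, LUM and FAP, so its shift restates their changes in part. COL3A1 alone averaged 417 FPKM with BETd-246 and 354 FPKM in controls. The part of shifts in the other markers in the rises was not tested.

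BETi-211 was called for 2 members in MDA-MB-157, HAS2 and FN1 (0.20 ± 0.07, limma adjusted p = 0.033), beside 45.8% of all genes, 14.9% higher and 30.9% lower. The FN1 call was lost in 9 alternatives. The count was 6 with median-of-ratios scaling, where COL3A1, COL5A1, COL6A1 and SPARC were also called higher (0.09, 0.15, 0.21 and 0.15), and 4 with DMSO alone as control. Without thalidomide replicate 1, BETi-211 replicate 1 or BETi-211 replicate 2 the count was 1. Set directly against BETi-211 at its higher dose, BETd-246 was called higher for 7 members in MDA-MB-157, beside 46.5% of all genes called and 24.2% higher. Besides HAS2 these were FAP (0.24 ± 0.04), COL3A1 (0.22 ± 0.04), COL6A1 (0.22 ± 0.07), LUM (0.21 ± 0.05), SPARC (0.17 ± 0.04) and COL5A1 (0.17 ± 0.06). FN1 did not differ detectably (95% interval of the log2 difference -0.18 to 0.18), and COL1A1 did not pass (0.13, 95% interval 0.01 to 0.26, limma adjusted p = 0.0787). With a pseudocount of 0.1 the count was 1, and with quantile normalization it was 4.

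In MDA-MB-231, 3 members were called with BETd-246 beside 48.1% of all genes (14.8% higher, 33.3% lower), HAS2 and COL1A1 lower and COL6A1 higher. COL6A1 had 11.8 and 11.99 FPKM with BETd-246, 12.6 and 12.9 FPKM with BETi-211, 9.93 and 11.1 FPKM with thalidomide and 10.3 and 9.96 FPKM with DMSO. Both compounds' libraries were above the controls, by 0.19 ± 0.06 with BETd-246 (limma adjusted p = 0.0146) and 0.28 ± 0.06 with BETi-211 (adjusted p = 0.000666). The COL6A1 call with BETd-246 was lost with a pseudocount of 0.1 (adjusted p = 0.0992), with column-total scaling (0.166), with thalidomide alone as control (0.0616) and without BETd-246 replicate 1 (0.0597) or replicate 2 (0.0935). COL1A1 stayed below 1 FPKM in all libraries of this line, at 0.290 and 0.295 FPKM with BETd-246 and 0.549 to 0.642 FPKM in controls (-0.29 ± 0.05, adjusted p = 0.000271). FN1 and COL5A1, the highest members of this line, were not called, at 0.11 ± 0.07 and -0.07 ± 0.05 with BETd-246, although FN1 was called with median-of-ratios scaling (0.31, adjusted p = 0.00238). With BETi-211, 3 members were called beside 50.1% of all genes (18.7% higher, 31.4% lower), HAS2 and SPARC lower and COL6A1 higher, and SPARC was at 0.184 and 0.134 FPKM with BETi-211 and 0.209 to 0.285 FPKM in controls. The SPARC call was lost with thalidomide alone as control (adjusted p = 0.0825) and without BETi-211 replicate 2 (0.232) or DMSO replicate 2 (0.0704). The compounds differed by a call in HAS2 and in COL1A1 (-0.22 ± 0.06, adjusted p = 0.00741), 2 members, beside 41.7% of all genes (17.8% higher, 23.9% lower).

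In MDA-MB-468, 0 members were called with BETd-246 by limma, 1 of 9 had an unadjusted p below 0.05, and 53.9% of all genes were called (20.1% higher, 33.7% lower). The count was 1 without DMSO replicate 1 or thalidomide replicate 2 and 2 without BETd-246 replicate 1. It was 3 with quantile normalization, where COL1A1 (0.35), FN1 (0.41) and FAP (0.38) were called higher, and 3 with median-of-ratios scaling, where the same genes were called (0.24, 0.24 and 0.21). With BETi-211, 3 were called beside 53.9% of all genes (21.3% higher, 32.5% lower). FAP had 2.02 and 2.06 FPKM with BETi-211 and 2.32 to 2.61 FPKM in controls (-0.18 ± 0.04, limma adjusted p = 0.00081), a call lost with quantile normalization (-0.10, adjusted p = 0.144). COL1A1 had 1.71 and 1.63 FPKM with BETi-211 and 1.20 to 1.53 FPKM in controls (0.19 ± 0.05, adjusted p = 0.00517). SPARC was at 0.275 and 0.314 FPKM with BETi-211 and 0.152 to 0.211 FPKM in controls (0.13 ± 0.03, adjusted p = 0.00354). FAP was also higher with BETd-246, at 2.61 and 2.65 FPKM, than with BETi-211 (0.26 ± 0.04, adjusted p = 0.000182), the 1 member called between the compounds beside 43.3% of all genes (20.1% higher, 23.2% lower).

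**Figure D3:**
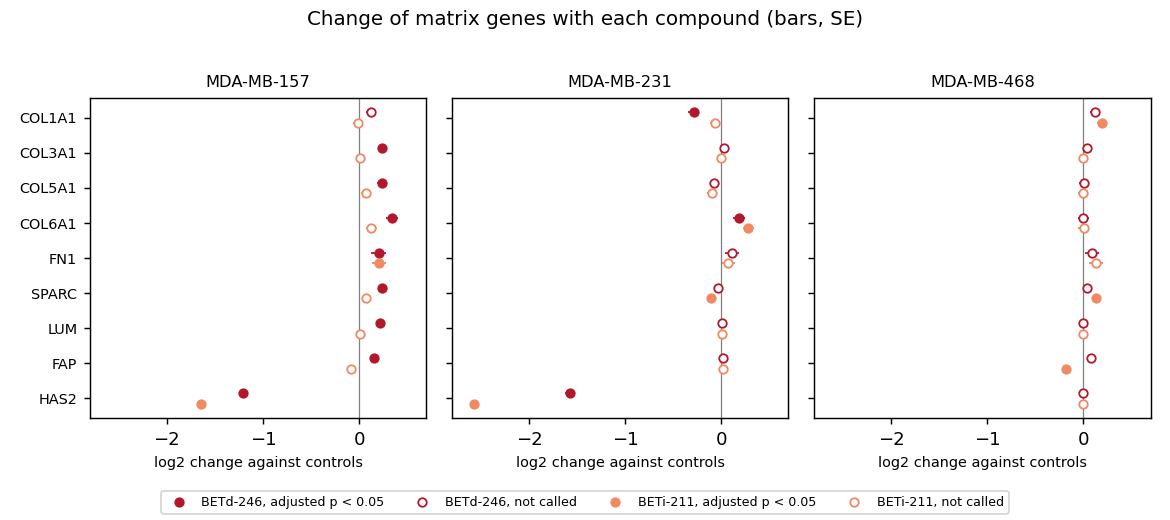
Change of each matrix gene with BETd-246 and BETi-211 against the controls of each line, as a log2 difference (points) ± SE (bars), with filled points for called genes. HAS2 is far to the left in MDA-MB-157 and MDA-MB-231, and the other changes lie between -0.29 and 0.34.

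Of the 54 differences of a compound's effect between 2 lines (9 members, 2 compounds and 3 pairs of lines), 22 were called. For BETd-246 these were 6 members for MDA-MB-157 minus MDA-MB-231, beside 11.2% of all genes called (6.23% higher, 5.01% lower). They were 6 for MDA-MB-157 minus MDA-MB-468, beside 13.1% (9.06% higher, 4.02% lower), and 2 for MDA-MB-231 minus MDA-MB-468, beside 13.3% (8.45% higher, 4.82% lower). For BETi-211 they were 2 for the first pair, beside 16.5% (7.53% higher, 9% lower), 1 for the second, beside 21.6% (12.1% higher, 9.52% lower), and 5 for the third, beside 21.9% (13% higher, 8.95% lower). Counts that moved most when a library was left out were 3 for BETd-246 and MDA-MB-157 minus MDA-MB-231 without MDA-MB-157 BETd-246 replicate 2, and 2 and 3 for MDA-MB-157 minus MDA-MB-468 without that library and without MDA-MB-468 BETd-246 replicate 1. For BETi-211 the count of MDA-MB-157 minus MDA-MB-231 was 1 without MDA-MB-157 BETi-211 replicate 1 or 2, MDA-MB-231 DMSO replicate 2 or MDA-MB-231 BETi-211 replicate 2. That of MDA-MB-157 minus MDA-MB-468 was 2 without MDA-MB-157 DMSO replicate 1 or 2 or BETi-211 replicate 2. That of MDA-MB-231 minus MDA-MB-468 was 2 without BETi-211 replicate 1 of either line and 3 without MDA-MB-231 BETi-211 replicate 2. In 38 of the 54 differences, and in 19 of the 22 called ones, the gene averaged under 1 FPKM in the controls of a line. Where it was near 0 there, the scale gives a change near 0. Such a difference largely restates the change in the other line and does not show unlike responses. The called differences with the gene above 1 FPKM in both lines were those of HAS2 given above and COL5A1 with BETd-246, at 0.31 ± 0.07 for MDA-MB-157 minus MDA-MB-231 (limma adjusted p = 0.0106). COL5A1 in MDA-MB-231 had 16.3 and 16.2 FPKM with BETd-246 and 15.9 to 18.96 FPKM in controls. That COL5A1 difference was not called with quantile normalization (0.10), with thalidomide alone as the control (0.28) or without MDA-MB-157 BETd-246 replicate 2 (0.30).

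Other matrix genes were taken from 9 lists of collagens, their processing enzymes, hyaluronan genes, receptors, proteoglycans, glycoproteins, laminins and proteases, 117 genes without the members. Counts over these lists are given for the main scale alone. In MDA-MB-157 with BETd-246, 62 (53%) were called higher and 7 (5.98%) lower, with a median log2 difference of 0.14, beside 19% and 32.4% of all genes. With BETi-211 the counts there were 26 (22.2%) and 11 (9.40%), with a median of 0.06, beside 14.9% and 30.9% of all genes. In MDA-MB-231 28 (23.9%) were higher and 12 (10.3%) lower with BETd-246, beside 14.8% and 33.3% of all genes, and 25 (21.4%) and 16 (13.7%) with BETi-211, beside 18.7% and 31.4%. In MDA-MB-468, 33 (28.2%) were higher and 14 (12%) lower with BETd-246, beside 20.1% and 33.7% of all genes, and 19 (16.2%) and 15 (12.8%) with BETi-211, beside 21.3% and 32.5%. Of the 23 measured genes for collagen processing and crosslinking, 15 rose and 1 fell with BETd-246 in MDA-MB-157, among them PCOLCE, an enhancer of procollagen cleavage, with 68.2 FPKM against 51.5 FPKM in controls (0.40 ± 0.05, limma adjusted p = 1.64e-06). Of the 17 measured other collagens, which include COL6A1, 11 rose and 0 fell there by limma, and the shares of all genes, 19% higher and 32.4% lower, apply to both counts. AGRN, the basement membrane proteoglycan agrin, had 52.0 FPKM against 39.5 FPKM in controls (0.40 ± 0.09). For BETd-246 in MDA-MB-157 the median change of all genes ran from -0.10 with column-total scaling to 0.09 with median-of-ratios scaling. Counts of small rises there can therefore depend on the scaling, as they did for the members.

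The hyaluronan list, with 10 measured genes of 20 including HAS2, had members called in both directions. In MDA-MB-231, 2 rose and 4 fell with BETd-246, beside 14.8% and 33.3% of all genes, and 2 rose and 2 fell with BETi-211, beside 18.7% and 31.4%. TMEM2, a transmembrane protein with hyaluronidase activity in mouse, went in opposite directions with the compounds. In MDA-MB-231 TMEM2 had 6.34 and 6.81 FPKM with BETd-246, 21.3 and 21.5 FPKM with BETi-211, 9.83 and 8.99 FPKM with thalidomide and 9.16 and 9.10 FPKM with DMSO. BETd-246 lay below and BETi-211 above all controls, at -0.44 ± 0.05 (limma adjusted p = 1.34e-06) and 1.13 ± 0.05 (adjusted p = 2.01e-11). TMEM2 in MDA-MB-157 had 16.1 and 16.9 FPKM with BETd-246, 29.96 and 29.03 FPKM with BETi-211 and 21.1 to 22.02 FPKM in controls (-0.37 ± 0.05 and 0.43 ± 0.05). In MDA-MB-468, where TMEM2 was looked at after its values in the other lines had been seen, it had 21.1 and 23.5 FPKM with BETd-246, 35.4 and 38.6 FPKM with BETi-211 and 30.1 to 32.5 FPKM in controls (-0.47 and 0.24). Both directions were called in each line under quantile, median-of-ratios and column-total scaling. BETd-246 minus BETi-211, at the unequal doses, was a log2 difference of -0.80 for MDA-MB-157, -1.57 for MDA-MB-231 and -0.71 for MDA-MB-468. HYAL2, a hyaluronidase, had 10.2 FPKM with BETd-246 in MDA-MB-468 against 15.1 FPKM in controls (-0.52 ± 0.07), and HMMR, a hyaluronan-binding protein, had 81.4 FPKM with BETi-211 in MDA-MB-157 against 99.2 FPKM (-0.28 ± 0.06).

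Among proteases, PLAU, the urokinase plasminogen activator, fell in every line with both compounds. In MDA-MB-468 PLAU had 12.6 and 13.4 FPKM with BETd-246, 7.70 and 7.43 FPKM with BETi-211, 33.1 and 32.2 FPKM with thalidomide and 31.5 and 31.2 FPKM with DMSO. The changes there were -1.24 ± 0.04 with BETd-246 and -1.95 ± 0.04 with BETi-211, and they were -0.69 and -1.74 in MDA-MB-231 and -0.44 and -0.96 in MDA-MB-157. SERPINE2, a serine protease inhibitor, was called higher in every line with both compounds. In MDA-MB-157 SERPINE2 rose by 0.28 ± 0.05 with BETd-246 and 0.36 ± 0.05 with BETi-211, in MDA-MB-231 by 0.31 ± 0.05 and 0.66 ± 0.05, and in MDA-MB-468 by 0.27 ± 0.05 and 1.02 ± 0.05. Among receptors, SDC2, a heparan sulfate proteoglycan, had 25.03 FPKM with BETi-211 in MDA-MB-231 against 15.4 FPKM in controls (0.66 ± 0.03). SDC4 of the same family rose in that line by 0.31 ± 0.03 with BETd-246 and by 0.61 ± 0.03 with BETi-211. The integrin subunit ITGB8 had 9.25 FPKM with BETi-211 in MDA-MB-468 against 15.5 FPKM (-0.69 ± 0.04). THBS1, thrombospondin, had 279 FPKM with BETi-211 in MDA-MB-231 against 395 FPKM (-0.48 ± 0.11). Thalidomide replicate 1 raised that control mean, at 515.8 FPKM, and the other controls lay at 333.1 to 366.8 FPKM. In MDA-MB-468 the collagen-modifying P3H1 rose with BETi-211 (0.70 ± 0.03), and P4HB (0.30 ± 0.04) and BMP1 (0.36 ± 0.06) rose with BETd-246.

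**Figure D4:**
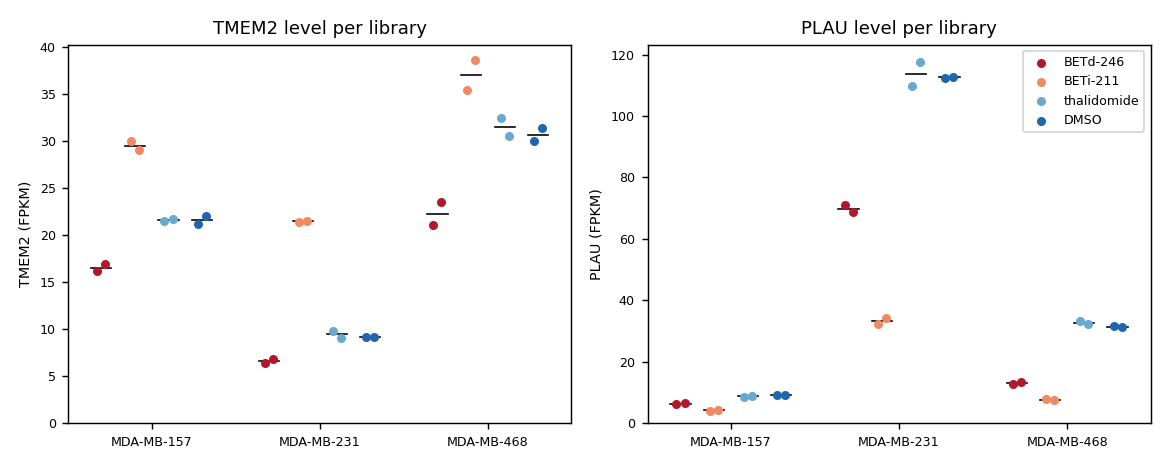
TMEM2 (left) and PLAU (right) in FPKM in every library (points) with group means (black lines), by line and, from left to right, BETd-246, BETi-211, thalidomide and DMSO. TMEM2 is below its controls with BETd-246 and above them with BETi-211 in all 3 lines, and PLAU is below them with both.

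The genes whose pattern over the 24 libraries was most like that of HAS2, after the control mean of each line was subtracted, were PDE4D (Pearson r = 0.980), ZNF655 (0.979) and DMBT1 (0.965). For FN1 they were MTOR (0.873), TLN1 (0.840) and FRAS1 (0.834). The points share libraries and lines, HAS2 adds no variation in MDA-MB-468, and DMBT1 was below 1 FPKM in MDA-MB-157. No test was made.

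By GENCODE version 29 on GRCh38, HAS2 lies at chr8:121612116-121641390 on the minus strand and shares 201 exonic bases with HAS2-AS1 on the opposite strand. SPARC (chr5:151661096-151687165, minus strand) shares 381 exonic bases with CLMAT3 and FAP (chr2:162170684-162245151, minus strand) 638 with AC007750.1. None of these partners is a row of the table, and the library kit does not mark the strand, so reads of a gene and its partner cannot be told apart. COL1A1 lies at chr17:50183289-50201632 (minus strand), COL3A1 at chr2:188974320-189012746 (plus strand), COL5A1 at chr9:134641774-134844843 (plus strand), COL6A1 at chr21:45981737-46005050 (plus strand), FN1 at chr2:215360440-215436172 (minus strand) and LUM at chr12:91102629-91111831 (minus strand). All are annotated as protein-coding genes.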

How the data were processed

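After removal of ribosomal RNA, libraries were made from total RNA with the TruSeq RNA Library Prep v2 kit, per the labels' protocols. That kit leaves the strand unmarked. As deposited, the table holds FPKM for 14114 genes in 24 libraries. No header gives that unit, which rests on values with decimals and on a lowest value above 0 that fell with transcript length (Spearman's rho -0.55 over 362 genes, which are not independent). Every gene reaches 1.22 FPKM or more in its highest group mean. The tools named were Bowtie 0.12.8 and bcl2fastq 2.17.1.14, with GRCh38.p5 as the build, per the submitters' processing notes. The program behind the FPKM values is not given in the sources used here.

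In R 4.3.3, limma 3.58.1 was fitted to log2(FPKM + 1) with 1 coefficient per group, a variance trend, no robust step and no block (12 residual and 3.32 prior degrees of freedom). Each compound was set against the mean of the thalidomide and DMSO coefficients of its line. No filter was applied. Alternatives were a pseudocount of 0.1, a filter at a group mean of 5 FPKM, 3 scalings, a replicate block, lines fitted alone, other variance models, 1 control at a time and each library left out. Of the 14114 identifiers, 13951 matched GENCODE version 29.

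The members, the lists and the comparisons were chosen with earlier results of these data known. All members are described. Of the other lists, the 2 called genes with the largest change each way per compound and line were eligible, with the higher group mean at least 5 FPKM. For HAS2 and FN1 the 3 genes of highest Pearson r, among genes with at least 5 FPKM in some group, were named. RGS5 has 2 rows and was left out of its marker list.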

Additional observations from a re-analysis of the deposited data

Results flagged for a closer look

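Control libraries of a line (4) were examined in 26 cases. Chance alone gives about 1 flag in 20 groups of 4 like values, but these groups mix DMSO and thalidomide and some hold values of 0. The gap of the outlying library was 0.855 of the whole range for COL1A1 in MDA-MB-231, where DMSO replicate 1 was highest at 0.642 FPKM. It was 0.900 for FN1 in MDA-MB-468, where DMSO replicate 1 was lowest at 2.74 FPKM. It was 1.0 for HAS2 in MDA-MB-468, where DMSO replicate 1 had 0.00382 FPKM and the other 3 are listed at 0. With 3 values at 0 the gap is always the whole range, so that flag carries no information.

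The difference of a compound's effect between lines, tested itself in limma, was called in 22 of the 54 cases examined. In 19 of these the gene averaged under 1 FPKM in the controls of a line, a limit of 1 FPKM set after the values were seen. The other 3 were HAS2 with BETi-211 (0.93) and with BETd-246 (0.37) and COL5A1 with BETd-246 (0.31), all for MDA-MB-157 minus MDA-MB-231.

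For BETd-246 and MDA-MB-157 minus MDA-MB-231, the remaining differences were 0.42 for COL1A1, 0.27 for SPARC, 0.21 for LUM and 0.20 for COL3A1. For MDA-MB-157 minus MDA-MB-468 they were -1.21 for HAS2, 0.35 for COL6A1, 0.24 for COL5A1, 0.22 for LUM, 0.21 for SPARC and 0.20 for COL3A1. For MDA-MB-231 minus MDA-MB-468 they were -1.58 for HAS2 and -0.41 for COL1A1. For BETi-211 the SPARC difference was 0.17 for MDA-MB-157 minus MDA-MB-231 and HAS2 was -1.64 for MDA-MB-157 minus MDA-MB-468. For MDA-MB-231 minus MDA-MB-468 they were -2.57 for HAS2, -0.26 for COL1A1, 0.28 for COL6A1, -0.24 for SPARC and 0.20 for FAP. HAS2 is at or near 0 in every MDA-MB-468 library, so its differences with that line restate its fall in the other line. LUM, COL3A1, COL5A1 and COL6A1 are also at or near 0 there, and their differences with MDA-MB-468 largely restate their changes in the other line. For LUM with BETd-246 both values were 0.22. The same applies to COL3A1, LUM and FAP in MDA-MB-231.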

How the results depend on the processing

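Over 189 results of single members and 3375 values under alternatives, 2975 kept direction and call, 140 lost the call, 72 gained it and 188 changed sign. In 180 of the sign changes neither value was called. The falls of HAS2 with each compound in MDA-MB-157 and MDA-MB-231 kept direction and call under every alternative run.

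Sign changes with a call were, with quantile normalization, COL1A1 for BETd-246 against BETi-211 in MDA-MB-468 (0.16) and COL3A1 for BETi-211 in MDA-MB-157 (-0.09), and with median-of-ratios scaling COL5A1 for BETd-246 in MDA-MB-231 (0.12). Called differences between lines that changed sign without a call were COL3A1 with BETd-246 in MDA-MB-157 minus each other line (-0.07 with a pseudocount of 0.1, 0.00 with quantile normalization) and SPARC in MDA-MB-157 minus MDA-MB-468 (-0.07 with quantile normalization). The cause was not tested.

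Taking all log2 differences that changed sign by setting, 32 did so with quantile normalization, to -0.34, -0.32, -0.15, -0.13, -0.09, -0.07, -0.05, -0.02, -0.01, 0.00, 0.02, 0.03, 0.06, 0.07, 0.09, 0.16 or 0.17. With DMSO alone as control 15 did, to -0.03, -0.02, -0.01, 0.00, 0.01 or 0.09, and with thalidomide alone 11, to -0.06, -0.03, -0.01, 0.00, 0.01 or 0.03. Column-total scaling turned 15, to -0.05, -0.04, -0.03, -0.01, 0.00 or 0.01, and median-of-ratios scaling 11, to 0.00, 0.01, 0.04, 0.07, 0.08, 0.11 or 0.12. A pseudocount of 0.1 turned 8, to -0.07, -0.02, 0.00 or 0.03, and a line or pair of lines fitted alone 5, to 0.00.

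Leaving out 1 library changed the sign of 44 differences. Their lowest values without a library were -0.17, -0.16, -0.15, -0.11, -0.09, -0.08, -0.07, -0.06, -0.05, -0.04, -0.03, -0.02, -0.01, 0.00 or 0.01, and their highest 0.00, 0.01, 0.02, 0.03, 0.04, 0.05, 0.08, 0.09, 0.11, 0.13, 0.15, 0.16, 0.18, 0.22 or 0.24.

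Counts of members called moved by over 1.5 times as follows. A pseudocount of 0.1 gave 1 for BETd-246 against BETi-211 in MDA-MB-157 and 3 in MDA-MB-468, 4 for BETd-246 in MDA-MB-157 and 2 in MDA-MB-468, 1 for BETi-211 in MDA-MB-157 and 0 for thalidomide against DMSO there. For effects between lines it gave 3 for BETd-246 in MDA-MB-157 minus MDA-MB-231, and 1 and 2 for BETd-246 and BETi-211 in MDA-MB-157 minus MDA-MB-468. Quantile normalization gave 4 for BETd-246 against BETi-211 in MDA-MB-157 and 2 in MDA-MB-468, 3 for BETd-246 in MDA-MB-468, and for effects 2, 2 and 4 for BETd-246 over the pairs MDA-MB-157 minus MDA-MB-231, MDA-MB-157 minus MDA-MB-468 and MDA-MB-231 minus MDA-MB-468, and 2 for BETi-211 in MDA-MB-157 minus MDA-MB-468. Median-of-ratios scaling gave 5 for BETd-246 in MDA-MB-231 with 3 in MDA-MB-468, 6 for BETi-211 in MDA-MB-157, and 4 for the BETd-246 effect in MDA-MB-231 minus MDA-MB-468. Column-total scaling gave 2 for the BETd-246 effect in MDA-MB-157 minus MDA-MB-468 and 1 for the BETi-211 effect in MDA-MB-157 minus MDA-MB-231. DMSO alone gave 1 for BETd-246 in MDA-MB-468 and 4 for BETi-211 in MDA-MB-157. Thalidomide alone gave 1 for BETi-211 in MDA-MB-157, and 1, 2 and 3 for the BETi-211 effect over the same 3 pairs. The filter at 5 FPKM and the fit without a variance trend each gave 1 for BETd-246 in MDA-MB-468 and 2 for thalidomide against DMSO in MDA-MB-157, where the line fitted alone gave 0.

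With each library left out in turn, the counts were 7 to 8, 2 to 3 and 0 to 2 for BETd-246 over the lines in ascending number, and 1 to 3, 2 to 4 and 2 to 3 for BETi-211. They were 5 to 6, 2 and 1 for BETd-246 against BETi-211, and 0 to 4, 0 to 2 and 0 for thalidomide against DMSO. Between control lines they were 9, 9 and 7 to 8. For effects over the same pairs they were 3 to 7, 2 to 6 and 2 to 3 for BETd-246 and 1 to 3, 1 to 2 and 2 to 5 for BETi-211. Where a group was left with 1 library, that library was assumed to vary like the other groups.

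Deviations of same-numbered libraries of a line correlated at -0.21 to 0.33 over 18 pairs of groups, highest for MDA-MB-468 DMSO with thalidomide. These values cannot show whether libraries of equal number were made together. With the replicate number as a block, 188 of the 189 results kept direction and call, and the COL5A1 effect of BETd-246 in MDA-MB-157 minus MDA-MB-468 stayed at 0.24 without the call (limma adjusted p = 0.0567). No count of members moved by over 1.5 times.

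Depth was not known, so no counting error can be given for levels near 0 FPKM, and differences of genes below 1 FPKM are compressed by the pseudocount.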
